A study of Mus musculus with 6 samples.

Results

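Dio3, the type 3 deiodinase that inactivates thyroid hormone, was examined together with Thra, Thrb, Rxra, Rxrb, Ncor1 and Med1, which encode the receptors, partners and cofactors through which the hormone acts on genes. These 7 genes were found by symbol among the 10616 genes of the count table, and all 7 were present and passed the low-mean filter of the test. Dio3 was chosen by its higher counts in the Brca2 knockdown libraries, so its values are a description and carry no test. The other 6 share its pathway by function and were chosen with earlier results of these data known. Of these 6, 0 passed the test between the groups, against 1.27% of all genes. At so low a share, 0 of 6 does not set these genes apart.

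The cells were KPC, a line from a mouse model of pancreatic ductal adenocarcinoma, cultured in serum-containing growth medium. All 6 received a lentiviral hairpin under puromycin selection, a hairpin against Brca2 in the 3 shBrca2 libraries and a non-targeting hairpin in the 3 shControl libraries. Live cells were sorted as negative for propidium iodide, and 3' ends of poly(A) RNA were sequenced by a variation of MARS-seq. The labels do not say whether the 3 libraries of a group are separate cultures, or whether a clone or a pool was used, so p-values measure the spread between these libraries, which may be technical. The study's legend for these data counts mice, while its methods describe cultured cells, so what a replicate is was not settled here. Replicate numbers used below follow the order of the samples in the series, since no label gives them.

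Thyroid hormone enters cells through membrane transporters, as thyroxine and as the active form triiodothyronine. Deiodinases then remove iodine atoms, and the type 3 enzyme takes one from the inner ring, which yields products that do not activate the receptors. Receptors bound to DNA with a retinoid X receptor partner recruit corepressors without hormone and coactivators with it. Dio3 is high in fetal tissues, placenta and some tumours, is a selenoprotein, and sits at the end of the imprinted Dlk1-Dio3 domain.

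Total counts ranged from 1519340 to 2452467 per library. The targeted gene followed the labels, with Brca2 counts of 10, 11 and 14 in shBrca2 and 33, 52 and 33 in shControl (log2 fold change -1.61, adjusted p = 0.029 by DESeq2). That call was lost without shBrca2 replicate 2 (adjusted p = 0.152), shBrca2 replicate 3 (0.233) or shControl replicate 2 (0.371). The first principal component took 40.9% of the variance and did not fully separate the groups, since shBrca2 replicate 2 lay above shControl replicate 1. Its values were lowest in shBrca2 replicates 1 and 3 (-0.419 and -0.426), -0.176 in shControl replicate 1, 0.0225 in shBrca2 replicate 2, 0.264 in shControl replicate 2 and highest in shControl replicate 3 (0.736). The epithelial identity fitted the label in part: 7 of 8 epithelial and ductal markers were in the table. Their summed normalized counts were 16601 to 17373 in shBrca2 and 17456 to 18583 in shControl. The highest base means were 9184 for Krt18, 4227 for Krt19, 2909 for Krt8 and 911 for Cdh1. Epcam had a base mean of 6.52, under those of Col1a2, Cd68 and Prss2 given below. Krt7 and Sox9, both duct genes, were called higher in shBrca2 (log2 fold changes of 1.21 and 1.20). The Sox9 call was lost on leaving out shBrca2 replicate 2 (adjusted p = 0.151), shBrca2 replicate 3 (0.6405), shControl replicate 1 (0.187) or shControl replicate 2 (0.462) by DESeq2. Epcam, Krt8, Krt18 and Krt19 had log2 fold changes of -0.55, -0.17, -0.12 and -0.061, and none of these 4 was called. Cdh1 had 0.32 and was not called either (adjusted p = 0.69 by DESeq2). Of 9 fibroblast, 8 immune or endothelial and 10 acinar or endocrine markers, 1 of each list was in the table. These were Col1a2, Cd68 and Prss2, with base means of 13.4, 15.6 and 6.98 normalized counts, and the other markers were not analysed here. Their part in the results below was not tested.

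The sequences before the starts of Dio3 and Dio3os are shown because the start sites of Dio3 and of its divergent noncoding neighbour Dio3os face away from each other, and the counts of both are given below. Each is the 250 bases before the RefSeq start on GRCm38.p6, the build that the submitters' processing notes name as mm10, read 5′ to 3′ on the strand of the gene. The Dio3 stretch is chr12:110278980-110279229 on the plus strand and the Dio3os stretch is chr12:110278069-110278318 on the minus strand. Capitals mark matches, on either strand, to the TATA box TATAAA, the CCAAT box CCAAT and the GC box GGGCGG.
Dio3: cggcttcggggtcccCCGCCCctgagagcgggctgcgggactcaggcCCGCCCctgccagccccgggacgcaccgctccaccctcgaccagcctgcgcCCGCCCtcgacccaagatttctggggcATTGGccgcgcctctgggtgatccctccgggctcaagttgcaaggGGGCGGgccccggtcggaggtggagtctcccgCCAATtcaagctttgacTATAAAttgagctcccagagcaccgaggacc
Dio3os: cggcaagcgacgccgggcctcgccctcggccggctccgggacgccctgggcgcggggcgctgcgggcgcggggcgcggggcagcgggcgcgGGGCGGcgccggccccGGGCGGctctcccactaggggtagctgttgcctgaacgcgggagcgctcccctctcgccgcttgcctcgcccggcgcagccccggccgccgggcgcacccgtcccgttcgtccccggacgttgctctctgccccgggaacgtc

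The Dio3 stretch held 1 TATA box, which began 31 bases before the start, 2 CCAAT boxes and 4 GC boxes. The Dio3os stretch held 0 TATA boxes, 0 CCAAT boxes and 2 GC boxes. Over 32851 RefSeq windows of the same length, 12.4% held TATAAA, 33.8% held CCAAT and 32.7% held GGGCGG on either strand. GC content was 69.6% for Dio3 and 82% for Dio3os, against a median of 52.4%. The letters AGGTCA, one repeat of nuclear receptor sites, were in 14.0% of all windows and not in the Dio3 or Dio3os stretch. The same held for the hypoxia core ACGTG (16.6% of windows), the AP-1 site TGANTCA (6.75%), the GLI site GACCACCCA (0.225%) and the Smad box GTCTAGAC (0.167%). RefSeq windows were found for 6 of the 7 genes, and Thra had none. TATAAA was found in windows of 2 of these 6 genes, Dio3 and Thrb, and AGGTCA in those of Thrb and Rxra. No match says only that these letters are not in this window.

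Dio3 (Entrez 107585, chr12:110279230-110281097 on GRCm38.p6) was counted 31, 49 and 74 times across shBrca2 and 4, 6 and 5 times across shControl. Divided by size factors these were 42.2, 46.3 and 64.4 normalized counts in shBrca2 and 4.04, 5.03 and 4.94 in shControl. The groups did not overlap, and the lowest shBrca2 library lay far above the highest shControl library. The mean was 50.98 ± 11.8 in shBrca2 and 4.67 ± 0.548 in shControl (SD, n = 3), a 10.9-fold difference and a log2 fold change of 3.45 with a standard error of 0.52. In shControl the counts were few. The exact Poisson interval of 4 counts was 1.09 to 10.2 and that of 6 counts was 2.20 to 13.1, which cover counting error only. The lowest shBrca2 count, 31, had an interval of 21.1 to 44.0.

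**Figure D1:**
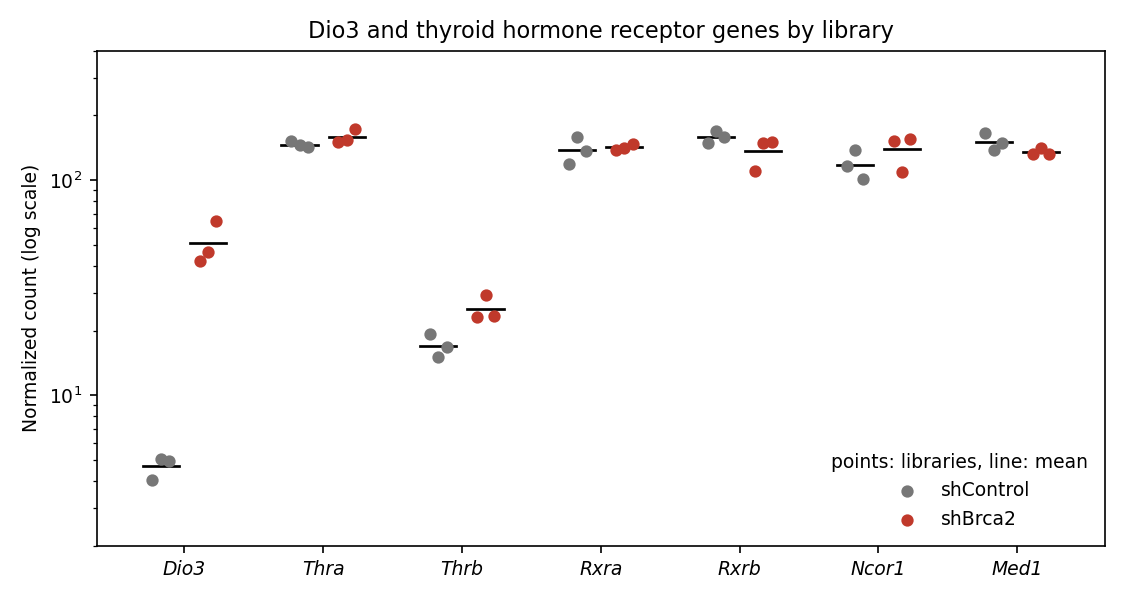
Normalized counts of the 7 genes in each library on a log axis, with points for libraries, grey for shControl and red for shBrca2, and a line at each group mean. The Dio3 means are 4.67 in shControl and 50.98 in shBrca2, while the groups of the other genes lie close together and only those of Thrb do not overlap.

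Among the 77 genes called higher, a count that includes Dio3, it ranked 2 by log2 fold change. Dio3 was chosen by this difference, so the rank is a description and carries no test. Ugt2b35 lay just above Dio3 (5.16, base mean 6.15 normalized counts) and Sult1d1 just below (3.37, base mean 8.95), and both had fewer counts than Dio3. By mean normalized count Dio3 ranked 9903 of 10616 genes in shControl and 5591 of 10616 in shBrca2. So in the control cells it stood among the least abundant listed genes, and in shBrca2 it was near the middle of the table. The 2 ranks use 3' end counts, which do not scale with transcript length.

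The genes whose log2 normalized counts over the 6 libraries were most like those of Dio3, among 9905 genes with a base mean over 5, were Cmtm8 (Pearson's r of 0.9985), Igfbp5 (0.998), Gcnt3 (0.996), Pip5k1b (0.995) and Anxa13 (0.995). Because Dio3 was chosen for its group difference, any gene that separates the same groups scores high, so these values are a description of 6 libraries. Igfbp5, which binds insulin-like growth factors, had a log2 fold change of 2.51 and Anxa13, an annexin of gut epithelium, one of 1.33. Cmtm8, Gcnt3 and Pip5k1b had smaller ones, of 0.78, 0.78 and 0.62. Pip5k1b was not called (adjusted p = 0.542 by DESeq2). Cmtm8 was called (0.062) but lost its call whenever a library was left out (0.126 to 0.319). Of the 6 genes examined with Dio3, Thrb had the highest r (0.855, rank 437), followed by Thra (0.731), Ncor1 (0.512) and Rxra (0.272). Rxrb (-0.519) and Med1 (-0.706) had negative values. None of the 6 differed between the groups by the test, so these values too are a description.

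The receptor, partner and cofactor genes were then examined. Over all 9997 genes with an adjusted p, 1.27% were called in either direction, 0.77% higher and 0.5% lower in shBrca2, and 20.6% had groups that did not overlap, 10.2% with shBrca2 higher and 10.4% with shBrca2 lower. Of the 6 genes besides Dio3, 0 were called by the DESeq2 likelihood ratio test, 0 had an unadjusted p under 0.05 (8.66% of all genes) and 1, Thrb, had groups that did not overlap. The edgeR quasi-likelihood test also called 0, with 1 of the 6, Thrb again, under an unadjusted p of 0.05. Their log2 fold changes ran from -0.21 to 0.58 with a median of 0.084, beside -0.00094 over all genes.

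Thra, the receptor alpha gene (chr11:98740776-98769006), had 151, 154 and 173 normalized counts in shBrca2 and 152, 145 and 142 in shControl. One shControl library reached into the shBrca2 range, so the groups overlapped. The log2 fold change was 0.13, with a 95% interval of -0.26 to 0.52 (adjusted p = 0.943 by DESeq2). The 3' end of Thra shares 1075 bases with Nr1d1, the circadian repressor on the opposite strand, and whether counting used strand is not given in the sources used here, so the Thra count is uncertain. Nr1d1 itself averaged 22.2 ± 3.51 normalized counts under shBrca2 and 25.2 ± 2.36 under shControl (SD, n = 3), with a log2 fold change of -0.19 (adjusted p = 0.968 by DESeq2).

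Thrb, the receptor beta gene (chr14:17659225-18040097), had 23.2, 29.3 and 23.5 normalized counts in shBrca2 and 19.2, 15.1 and 16.8 in shControl. Every shBrca2 library was above every shControl library. The means were 25.3 ± 3.46 and 17.03 ± 2.06 (SD, n = 3), a log2 fold change of 0.58 with a 95% interval of -0.28 to 1.44. This did not pass the test (adjusted p = 0.828 by DESeq2, and 0.344 by edgeR). The raw counts, 17 to 31 per library, leave wide counting intervals, such as 9.90 to 27.2 for 17 counts. Set beside Dio3, Thrb had the higher normalized count in all 3 shControl libraries and Dio3 had the higher one in all 3 shBrca2 libraries. Dio3 was chosen by its rise, so this reversal is a description and carries no test.

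Rxra (chr2:27676445-27763319) and Rxrb (chr17:34031812-34038403) encode the retinoid X receptors that pair with the hormone receptors and with many other nuclear receptors. Rxra had 138, 142 and 147 normalized counts in shBrca2 and 119, 158 and 136 in shControl, so the shBrca2 libraries lay within the shControl range. Its log2 fold change was 0.041 with a 95% interval of -0.37 to 0.45 (adjusted p = 0.988 by DESeq2). Rxrb had 110.3, 148 and 151 in shBrca2 and 149, 170.2 and 158 in shControl. The lowest value belonged to shBrca2 replicate 1, and the other 2 shBrca2 libraries lay close to the lowest control. The log2 fold change of Rxrb was -0.21 with a 95% interval of -0.63 to 0.20 (adjusted p = 0.889 by DESeq2).

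Ncor1 (chr11:62315663-62457414), the corepressor that unliganded receptors recruit with histone deacetylase 3, had 153, 109.7 and 156 normalized counts in shBrca2 and 116, 138 and 101 in shControl. Replicates 1 and 3 of shBrca2 were above all controls and replicate 2 was not. The log2 fold change was 0.23 with a 95% interval of -0.22 to 0.69 (adjusted p = 0.889 by DESeq2). Ncor1 shares 16217 bases with Ttc19, so its count is uncertain where strand was not used. Med1 (chr11:98152154-98193313), the Mediator subunit that contacts liganded receptors, had 132, 142 and 132 in shBrca2 and 166, 138 and 149 in shControl. Its log2 fold change was -0.15 with a 95% interval of -0.55 to 0.25 (adjusted p = 0.935 by DESeq2).

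In order of normalized 3' end count, which has no length term, the shControl means were 4.67 for Dio3, 17.03 for Thrb, 118 for Ncor1, 138 for Rxra, 146 for Thra, 151 for Med1 and 159 for Rxrb. Dio3 and Thrb were each set apart from the next gene by more than their SDs, and the SDs of neighbours among the other 5 overlapped. In shBrca2 the order was 25.3 for Thrb, 50.98 for Dio3, 135 for Med1, 136 for Rxrb, 139 for Ncor1, 142 for Rxra and 159 for Thra. Thrb and Dio3, now in the reverse order, were again set apart, and the mean ± SD ranges of Rxra and Thra, the highest 2, also did not overlap. The reverse order of Thrb and Dio3 restates the difference by which Dio3 was chosen.

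Because Thra and Thrb, and Rxra and Rxrb, are pairs of related genes, the share of each pair's counts was computed per library (chosen after the counts were seen). Thrb took 13.3%, 16.0% and 11.9% of the Thrb and Thra counts in shBrca2 and 11.2%, 9.42% and 10.6% in shControl. The groups did not overlap, but every library's exact (Clopper-Pearson) 95% interval overlapped those of the others, for example 11.1% to 21.9% for the highest and 5.68% to 14.5% for the lowest. Rxra took 55.5%, 48.9% and 49.4% of the Rxra and Rxrb counts in shBrca2 and 44.5%, 48.2% and 46.3% in shControl. These groups did not overlap either, though 48.9% and 48.2% lay close. Again every library's interval overlapped those of the others, for example 48.0% to 62.8% for the highest and 38.4% to 50.7% for the lowest. The highest share, 55.5%, was that of shBrca2 replicate 1, the library with the fewest total counts.

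The differences in mean share, shBrca2 minus shControl, were 3.33 percentage points for Thrb and 4.91 for Rxra. The exact two-sided permutation p was 0.1 for both, the smallest that 3 against 3 libraries can give, and 0.15 after Benjamini-Hochberg adjustment over 3 tests. This design could not reach a p under 0.05 or under 0.1, so the shares are values only. A share describes tags and not protein.

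**Figure D2:**
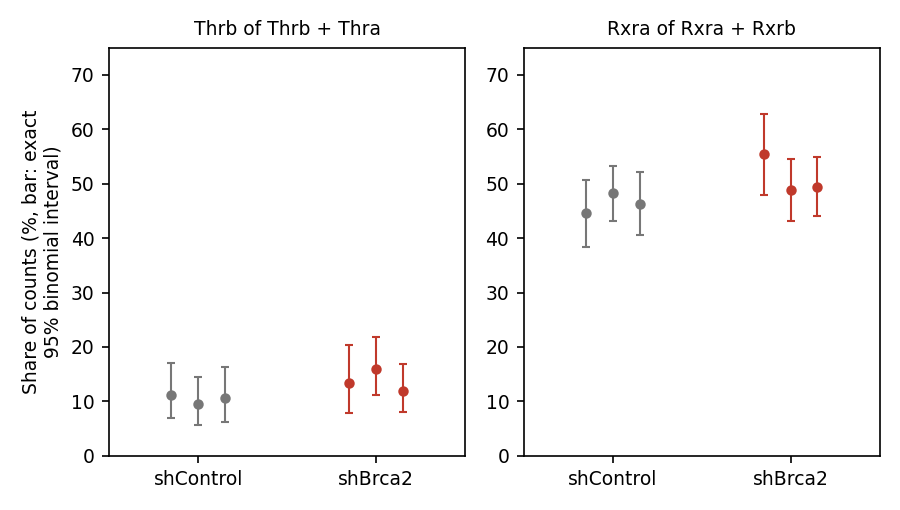
Share of counts (%) that Thrb and Rxra take within their pairs, 1 point per library with its exact 95% binomial interval, grey for shControl and red for shBrca2. Thrb shares run from 9.42% to 11.2% in shControl and from 11.9% to 16.0% in shBrca2, and Rxra shares from 44.5% to 48.2% and from 48.9% to 55.5%.

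The rest of the hormone pathway was then described from lists of deiodinases, transporters and carriers, receptors, corepressors, coactivators and response genes. Without Dio3 these held 39 genes, of which 31 were in the table and had an adjusted p. One of the 31, Ttr, was called, higher in shBrca2, where 1.27% of all genes were called. The median log2 fold change was 0.127 beside -0.00094 over all genes, with 22 above 0 and 9 below, and 11 had groups that did not overlap, 9 of them higher in shBrca2, beside 20.6% and 10.2% of all genes. Of the 31, 7 had an unadjusted p under 0.05, beside 8.66% of all genes. The lists were chosen with results known, so nothing particular to the pathway is read from these counts.

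Among deiodinases, Dio1, which can activate or inactivate the hormone, had 2, 8 and 10 counts in shBrca2 and 2, 8 and 2 in shControl, and the groups overlapped. Its log2 fold change of 0.83 had a 95% interval of -0.996 to 2.66 (adjusted p = 0.907 by DESeq2), and its base mean of 4.95 was under the minimum of 5 for a call. Dio2, the activating enzyme, was not analysed here.

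Ttr, which encodes transthyretin, a carrier of thyroxine and of retinol-binding protein in blood, had 65.4, 50.1 and 90.5 normalized counts in shBrca2 and 33.3, 21.8 and 26.7 in shControl. The groups did not overlap. The mean rose from 27.3 ± 5.79 to 68.7 ± 20.4 (SD, n = 3), or 1.34 on the log2 scale with a standard error of 0.35 (adjusted p = 0.017 by DESeq2, 0.0583 by edgeR). The call was lost on leaving out shBrca2 replicate 3 (adjusted p = 0.483) or shControl replicate 2 (0.327), and the adjusted p ranged from 0.0123 to 0.483 over all alternatives. Transthyretin is also made by pancreatic endocrine cells, and Ins1, Ins2, Gcg, Sst and Chga were not analysed here.

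Slc16a10, an aromatic amino acid transporter that also carries thyroid hormone, had 49.0, 47.3 and 55.7 normalized counts in shBrca2 and 15.2, 35.2 and 20.8 in shControl. Every shBrca2 library was above every control, and shControl replicate 2 was the highest control. The log2 fold change was 1.08 with a 95% interval of 0.35 to 1.82, and it did not pass over all genes (adjusted p = 0.191 by DESeq2, 0.143 by edgeR). Without shControl replicate 2 the adjusted p by DESeq2 was 0.0999 with a log2 fold change of 1.497, which counts as a call, and it ranged from 0.0999 to 0.819 over all alternatives. Slc3a2 and Slc7a5, the heavy and light chains of a transporter that also moves the hormone, had log2 fold changes of -0.32 and -0.21 (adjusted p-values of 0.658 and 0.947 by DESeq2). Slco1c1, Slc7a8 and Crym were not analysed here.

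Of the 6 corepressor complex genes, all in the table, 0 were called, against 1.27% of all genes. Their median log2 fold change was 0.088. Tbl1x, a scaffold of the complex, had 0.45 (adjusted p = 0.712), and Hdac3, Gps2 and Tbl1xr1 lay from -0.21 to 0.10.

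Of 9 coactivator genes in the table, 0 were called, against 1.27% of all genes. The median of the 9 was 0.20, with 5 above 0 and 4 below. Groups did not overlap for 3 of the 9, all higher in shBrca2, beside 20.6% and 10.2% of all genes. By DESeq2, 1 had an unadjusted p under 0.05, beside 8.66% of all genes. Prmt1 and Ncoa6, which modify histones or bridge receptors to chromatin enzymes, had log2 fold changes of -0.18 and 0.20. The p160 genes Ncoa1, Ncoa2 and Ncoa3 had 0.73 ± 0.53, 0.76 ± 0.48 and -0.13 ± 0.46 (SE) at base means of 15.2, 25.9 and 21.1 normalized counts, and were named after their values were seen. For Ncoa2, shControl replicate 3 was low, with 4.94 normalized counts beside 28.3 and 24.3 in the other controls. Of 31 Mediator genes, Med1 among them, 27 were in the table and 0 were called, against 1.27% of all genes. The median of the 27 was -0.11, 12 above 0 and 15 below. The 3 with the highest base mean, Med25, Med10 and Med8, had log2 fold changes of -0.21, 0.21 and -0.037.

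Genes known to respond to the hormone gave 8 of 9 in the table, with Thrsp not analysed here. All 8 had a log2 fold change above 0, with a median of 0.29, where 4981 of 9997 genes were above 0. None was called, against 1.27% of all genes, and the smallest adjusted p by DESeq2 was 0.31. Of the 8, 3 were under an unadjusted p of 0.05, against 8.66% of all genes. Klf9, a Krüppel-like factor that triiodothyronine induces, had 106, 79.4 and 96.6 normalized counts in shBrca2 and 65.7, 67.1 and 42.5 in shControl, a log2 fold change of 0.68 (adjusted p = 0.347). Me1, which encodes malic enzyme, a source of NADPH for fat synthesis, averaged 1168 ± 174 under shBrca2 and 884 ± 77.4 under shControl (SD, n = 3), a log2 fold change of 0.40 (adjusted p = 0.31 by DESeq2). Cpt1a, the gate to fatty acid oxidation, had 0.39 (adjusted p = 0.55 by DESeq2). The groups of these 3 genes did not overlap, while those of Bcl3 (0.083), Gpd2 (0.057), Atp2a2 (0.015) and Hr (0.18) did. Over all genes 20.6% had groups that did not overlap, 10.2% with shBrca2 higher. The list is a mixture of direct and indirect targets, and Dio1 belongs to it as well. It was chosen with results known, so nothing particular to response genes is read from these counts.

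Dio3 needs selenocysteine, the amino acid that its active site uses. Of 6 genes that make or insert selenocysteine, 0 were called, against 1.27% of all genes. Eefsec, the elongation factor that delivers it, averaged 50.99 ± 13.01 normalized counts under shBrca2 and 77.4 ± 16.0 under shControl (SD, n = 3), a log2 fold change of -0.61 (unadjusted p = 0.044, adjusted p = 0.555 by DESeq2). Pstk, which phosphorylates the charged transfer RNA, had 0.41, Secisbp2, which binds the insertion element, 0.051, Trnau1ap 0.074, Sephs2 -0.26 and Sepsecs -0.45. Of 19 selenoprotein genes other than Dio3 in the table, 0 were called, against 1.27% of all genes. Of the 19, 9 were above 0 and 10 below, and the median log2 fold change was -0.019. Selenof, Selenop and Gpx1, the 3 with the highest base mean, had 0.23, 0.45 and 0.16.

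Selenop, the selenium carrier, showed how 1 library can shape a value in this set. It had 1938, 1864 and 2117 normalized counts in shBrca2 and 2212, 1163 and 963 in shControl. The first control was above all 3 shBrca2 libraries, and the other 2 controls were below them. With all libraries the adjusted p was 0.589 by DESeq2, and on leaving out shControl replicate 1 it was 3.39e-05 with a log2 fold change of 0.89. Over all alternatives it ranged from 3.39e-05 to 0.993. The part of that library in the difference was not tested.

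**Figure D3:**
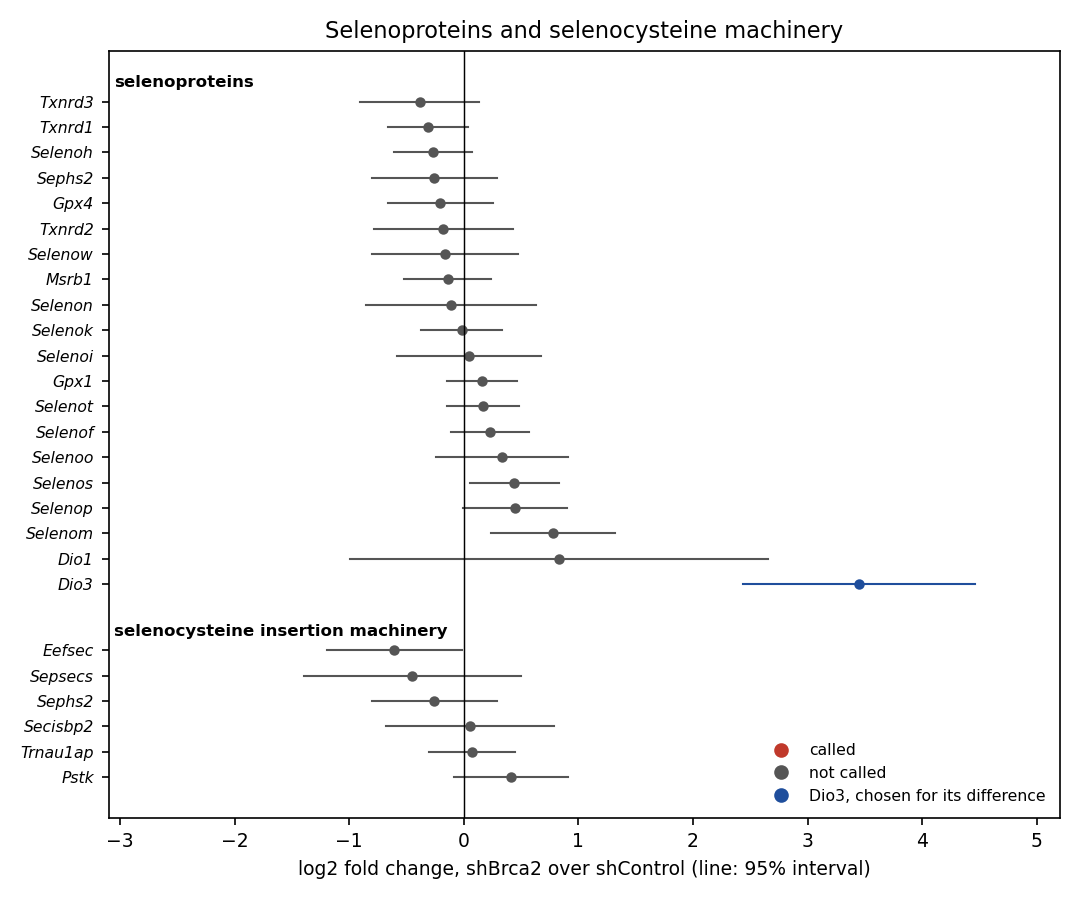
Log2 fold changes of shBrca2 over shControl with 95% intervals for 20 selenoprotein genes and 6 selenocysteine genes. Dio3 stands at 3.45, while the other selenoproteins run from -0.38 to 0.83 and none is called.

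The surroundings of Dio3 on chromosome 12 were compared to see which neighbours differed too. Dio3os, a noncoding RNA on the minus strand (chr12:110275384-110278068) whose start lies 1162 bases from that of Dio3, had counts of 5, 15 and 7 in shBrca2 and 3, 9 and 4 in shControl. These were 6.81, 14.2 and 6.09 normalized counts against 3.03, 7.55 and 3.96, so the groups overlapped and shBrca2 replicate 2 was the highest. The log2 fold change was 0.89 with a 95% interval of -0.65 to 2.43 (adjusted p = 0.87 by DESeq2). Dlk1, Meg3, Rtl1, Rian and Mirg, the other listed genes of the imprinted domain, were not analysed here.

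Of 19 genes that flank the domain, 17 were in the table and 0 were called, against a background of 1.27%. Their log2 fold changes ran from -0.46 for Hsp90aa1, a heat shock chaperone, to 0.44 for Degs2, a sphingolipid enzyme, with a median of -0.13, 7 above 0 and 10 below. The 3 with the highest base mean, Dync1h1, Wars and Ppp2r5c, had log2 fold changes of -0.32, -0.16 and 0.11 (adjusted p by DESeq2 0.589, 0.922 and 0.941). Ppp2r5c, a phosphatase subunit, was the listed gene nearest to Dio3 on the far side from Dio3os.

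**Figure D4:**
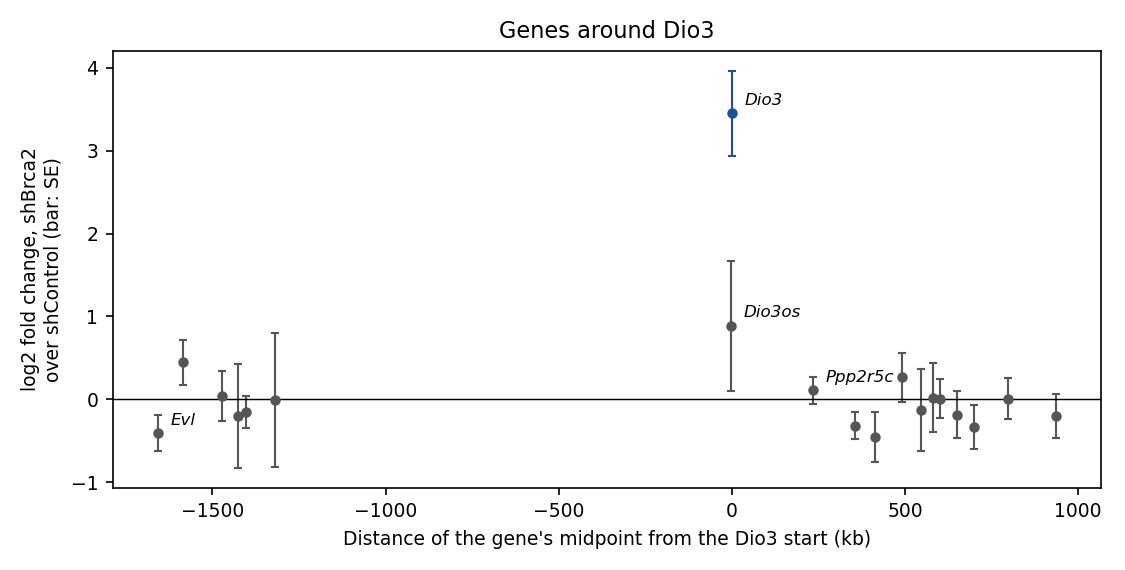
Log2 fold change of shBrca2 over shControl, with its standard error, against distance in kb from the Dio3 start. Dio3 stands at 3.45 and Dio3os at 0.89, while the 17 flanking genes run from -0.46 to 0.44.

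Genes of pathways known to induce Dio3 in other tissues gave 15 of 18 in the table. These pathways were hedgehog signalling, hypoxia factors, TGF-beta with its Smads, and mitogen-activated kinases. Of the 15 genes, 0 were called, against 1.27% of all genes. The median log2 fold change was -0.13, with 7 above 0 and 8 below. Groups did not overlap for 4 of the 15, 1 of them higher in shBrca2, beside 20.6% and 10.2% of all genes. By DESeq2, 2 had an unadjusted p under 0.05, beside 8.66% of all genes, and the smallest adjusted p was 0.391. Mapk3, Smad3 and Tgfb1, the 3 with the highest base mean, had log2 fold changes of -0.14, -0.13 and -0.52. Tgfb1 averaged 94.1 ± 27.9 normalized counts under shBrca2 and 134 ± 9.04 under shControl (SD, n = 3), with unadjusted p = 0.039 and adjusted p = 0.537 by DESeq2. Gli1, Gli2 and Gli3 were not analysed here.

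Other nuclear receptors that pair with retinoid X receptors gave 8 of 12 in the table and 0 called, against 1.27% of all genes. The median of the 8 was -0.22. Pparg, Ppard and Nr1h2, the 3 with the highest base mean, had log2 fold changes of 0.13, -0.37 and -0.26. Groups that did not overlap were found for 5 of the 8, beside 20.6% of all genes, 3 of them higher in shBrca2, and the smallest adjusted p by DESeq2 was 0.294.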

How the data were processed

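RNA-seq counts of 6 KPC libraries were analysed, 3 shBrca2 and 3 shControl, grouped by the source name in the labels. The table deposited by the authors holds raw counts per gene symbol, neither normalized nor pooled. It lists 10616 genes, each with at least 6 counts in some library, so a gene outside it was not analysed here. The submitters' processing notes name bcl2fastq, cutadapt, STAR 2.4.2a, HTSeq and DESeq2 and the build mm10. The annotation, the strand setting and the use of molecular identifiers are not given in the sources used here, so counting intervals cover counting error only.

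All genes were fitted with DESeq2 1.42.0 (R 4.3.3), its default size factors and, after the study's methods, its likelihood ratio test for the group term. Calls needed 3 things, a p under 0.1 after Benjamini-Hochberg adjustment, a base mean (mean normalized count over all libraries) over 5 and a log2 fold change beyond 0.5 in size. Unshrunken fold changes are given as shBrca2 over shControl, and 95% intervals are normal intervals from the standard error. DESeq2 gave an adjusted p to 9997 genes. edgeR 4.0.16, other scalings, filters and thresholds, and leaving out each library were the alternatives. The likeness to Dio3 used log2(normalized count + 1). The pipeline was tested on simulated data.

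The genes, lists and tests were chosen with earlier results of these data known. Named were the 7 genes, Brca2, Nr1d1, all measured genes of the deiodinase, transport, receptor, corepressor, selenocysteine, response and imprinted domain lists, the called genes and 3 highest base means of other lists, and the 5 genes most like Dio3. Wars1 was found under the older symbol Wars. Positions and sequences came from RefSeq on GRCm38.p6. Some listed genes and results, 1 of the 3 share tests among them, enter counts over lists but are not reported here by name.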

Additional observations from a re-analysis of the deposited data

How the results depend on the processing

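None of the 6 genes besides Dio3 was called under an alternative that gave it an adjusted p, and Thrb had none with TMM size factors, with at least 10 counts in 3 libraries or without shBrca2 replicate 2. Across the alternatives, the log2 fold change of Dio3 ranged from 3.24 to 3.56, both extremes with 1 library left out. Over all genes 127 were called, with 47 to 140 when a library was left out: leaving out shBrca2 replicate 3 gave 47, shControl replicate 2 gave 55, and shBrca2 replicate 1 gave 81. The pathway genes called ranged from 0 to 1 across these fits, with 0 without shBrca2 replicate 3. The 1 called was Ttr, except without shControl replicate 2, where Ttr lost its call (adjusted p = 0.327) and Slc16a10 gained it (0.0999). Over all genes, leaving out shControl replicate 1 gave 140 calls, more than the 127 of the main fit. The cause of these differences between fits was not tested.

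Direction turned, only with a library left out, for genes near 0, whose log2 fold changes then ranged from -0.055 to 0.15 for Rxra, -0.42 to 0.053 for Slc7a5, -0.11 to 0.20 for Gps2, -0.028 to 0.056 for Atp2a2, -0.12 to 0.17 for Gpd2, -0.28 to 0.059 for Tbl1xr1, -0.17 to 0.22 for Secisbp2, -0.41 to 0.016 for Sephs2, -0.59 to 0.010 for Nr1h2, -0.066 to 0.0096 for Med8, -0.16 to 0.022 for Krt19, -0.26 to 0.0019 for Krt8 and -0.25 to 0.57 for Col1a2. Of 755 comparisons of named genes with an alternative, 717 kept direction and call, 18 lost the call, 2 gained it and 18 turned direction. Most named genes were not called in the main fit, so for them keeping the call meant staying uncalled. A call could be lost only by the few named genes besides Dio3 that had one, so the 717 say little about how stable calls were. Dio3 was judged by its log2 fold change alone, which had to stay within its spread between libraries. Some alternatives, such as the stricter threshold, used the fold changes of the main fit, so direction could not turn there. A further 64 gave no value. The median over all genes moved by less than 0.1 on the log2 scale under each scaling. No paired analysis was possible because no label numbers the replicates.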
